A study of Homo sapiens with 6 samples.

Results

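Transcripts of 10 interleukin and colony-stimulating factor genes (IL1A, IL1B, IL6, IL11, IL18, IL32, LIF, CSF1, CSF3 and EBI3) were followed through 6 RNA-seq libraries of the A549 line, which comes from a human lung adenocarcinoma. The 10 genes were taken by name from a list of secreted immune mediators, out of 58735 genes in the deposited count tables, and each matched 1 row. They and the gene lists used below were chosen with earlier results of these data known. Counts of calls among them are therefore a description and no independent support. All 10 passed the low-count filter, as did 16340 genes in all, but IL1A and CSF3 did so only through the T133A libraries, where they are high: with WT and KO libraries alone, the other 8 passed. The cells, kept in RPMI medium with 10% serum, carried 1 of 3 lentiviral constructs, with 2 libraries for each. The WT group received PLVX-HOXB9, the T133A group PLVX-HOXB9-T133A, in which a threonine of this homeobox transcription factor is changed to alanine, and the KO group is labelled PLVX-HOXB9 KO. Neither empty-vector nor untransduced cells were among the groups. The labels do not say how the knockout was made, whether it is 1 clone, or whether WT and T133A cells still had their own HOXB9 gene. Nor do they tie the 2 libraries of a group to separate cultures. The p-values therefore measure no more than the spread between these samples, and that spread may be technical.

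Interleukins and colony-stimulating factors are secreted proteins by which cells direct leukocytes and their own neighbours. IL-1 alpha, IL-1 beta and IL-18 belong to the IL-1 family, whose receptors signal through MYD88 and IRAK kinases to NF-kB. IL-6, IL-11 and LIF share the receptor chain gp130, encoded by IL6ST, and act through JAK kinases and STAT3. CSF1 drives macrophage growth and CSF3 drives neutrophil production. EBI3 is a subunit of the heterodimers IL-27 and IL-35, and IL-32 is a cytokine found in epithelial and natural killer cells. In airway and lung tumour epithelium, several of these genes are known targets of NF-kB and AP-1.

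RefSeq promoter windows (GRCh38.p14, the build named for the counts being GRCh38) were matched by symbol for 6 of the 10 genes. IL18, LIF, CSF1 and CSF3 had no entry. For 3 genes, a stretch of the window is printed 5′ to 3′. It runs from 250 bases before the RefSeq start site to the first exonic base of an annotated transcript in the window. The 3 genes come from 3 different expression patterns described below and do not stand for the motifs of other genes in them. Capitals mark every match, on either strand, to an NF-kB motif (GGGA, any 4 bases, CC) or to the AP-1 motif TGANTCA.
IL6, chr7:22726950-22727146, forward strand: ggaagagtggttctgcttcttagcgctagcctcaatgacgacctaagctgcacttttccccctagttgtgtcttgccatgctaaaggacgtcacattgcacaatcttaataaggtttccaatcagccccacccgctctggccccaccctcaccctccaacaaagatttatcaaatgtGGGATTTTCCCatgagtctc
EBI3, chr19:4229273-4229497, forward strand: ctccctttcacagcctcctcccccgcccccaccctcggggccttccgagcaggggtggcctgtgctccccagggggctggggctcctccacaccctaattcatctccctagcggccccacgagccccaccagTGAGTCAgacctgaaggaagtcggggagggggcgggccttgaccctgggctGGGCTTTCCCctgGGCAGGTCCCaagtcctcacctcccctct
IL11, chr19:55370464-55370713, reverse strand: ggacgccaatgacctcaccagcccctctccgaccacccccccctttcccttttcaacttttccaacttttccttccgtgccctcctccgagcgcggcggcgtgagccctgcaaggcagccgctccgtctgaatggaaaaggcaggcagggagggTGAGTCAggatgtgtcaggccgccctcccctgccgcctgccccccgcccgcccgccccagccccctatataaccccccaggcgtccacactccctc
Overlapping NF-kB matches on the 2 strands form 1 run in IL6, between 73 and 63 bases before the start. IL32 had such a run 99 to 89 bases before the start and another match 68 to 59 bases before it, and EBI3 had matches at 67 to 58 and 54 to 45 bases. The AP-1 motif was found 118 to 112 bases before the start of EBI3, 96 to 90 bases before that of IL11 and 12 to 6 bases before that of IL1A. IL1B had neither motif in its window, and its only match was to the C/EBP motif TTGCNNAA, 215 to 208 bases before the start. A C/EBP match also lay 155 to 148 bases before the start of IL6. Of 35116 promoter windows of the same length, 22.6% held the NF-kB motif, 6.57% the AP-1 motif and 9.05% the C/EBP motif. IL1A and IL32 each had a second start site in the table. That of IL1A held 2 AP-1 matches and no NF-kB match, and that of IL32 held no match to either. The last 53 bases of the IL6 window, 97 of the IL1A window, 106 of the IL32 window, 124 of the IL1B window and 25 of the EBI3 window are transcribed in GENCODE 29 isoforms. The IL6 stretch lies in the first intron of a longer GENCODE 29 isoform, which starts further upstream. A match is a stretch of letters and was not tested as a binding site.

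Total counts per library ran from 16299059 to 18745432, and 0 counts allow a level of up to 3 counts, or 0.161 to 0.182 CPM (counts scaled to the TMM-corrected library size). HOXB9 itself had 3577 to 4777 counts in the WT and T133A libraries and 239 and 286 in KO (KO against WT, log2 fold change -3.88, adjusted p = 3.27e-16 by edgeR's quasi-likelihood test). All 12 markers listed for this carcinoma line were detected in every library, and their summed level was 19601 to 24486 CPM in WT and T133A and 16551 and 18611 CPM in KO. In KO, 6 of the 12 were lower and 1 higher than in WT, beside 23.0% and 23.6% of all genes tested. EPCAM, an epithelial adhesion molecule, stood at 15.7 ± 1.74 CPM in WT and 1.83 ± 0.156 CPM in KO (SD, n = 2). Mitochondrial transcripts took 7.84% to 8.91% of counts in WT and T133A and 4.45% and 5.6% in KO.

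Leukocytes are another source of several of these cytokines. Of 16 leukocyte markers, 7 to 9 had 0 counts in each library. TYROBP, CD3D and MS4A1 were at 0 throughout, and PTPRC had 1 count in 1 library. The summed level ran from 10.6 to 14.1 CPM in WT, from 14.5 to 18.5 CPM in T133A and from 11.8 to 16.9 CPM in KO. CD14, a monocyte surface receptor gene, gave most of that sum in 5 of the 6 libraries, all but KO replicate 1, with 5.28 to 12.8 CPM over the 6 libraries and no call in any comparison. ITGAM, an integrin chain of myeloid cells, passed the test in both comparisons with WT (log2 fold change 1.40 and 2.003, adjusted p = 0.00468 and 1.10e-05), at 1.17 to 5.58 CPM. Its call in T133A was lost without T133A replicate 1. The 13 fibroblast and endothelial markers summed to 43.9 to 45.4 CPM in WT and T133A and to 14.5 and 14.8 CPM in KO, where 4 of the 6 tested fell and 2 rose (1 without either WT library or KO replicate 2). COL3A1, a fibrillar collagen gene, and LUM, a matrix proteoglycan gene, were among the falls (log2 fold change -7.70 and -6.50). They averaged 13.4 and 21.3 CPM in WT and 0.0573 and 0.229 CPM in KO, and so made up most of the drop in the sum. The rises were THY1 and COL1A1 (2.58 and 0.57). Of all genes tested, 23.0% were called lower and 23.6% higher in KO against WT. The part of these marker levels in the results below was not tested. In bulk libraries, fewer cells of a type and less RNA per cell cannot be told apart.

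The 10 genes fell into 4 patterns over the 3 groups. IL6, IL1A, IL1B and CSF3 were higher in T133A than in both other groups, and KO against WT did not pass the test. EBI3 and IL32 were higher than WT in both T133A and KO, and higher in T133A than in KO. IL11, LIF and CSF1 were higher than WT in both groups, and T133A against KO did not pass. IL18 was lower in KO than in either other group, and T133A against WT did not pass. Among all genes tested, these combinations of calls were found for 1.34%, 0.288%, 1.52% and 13.3%, in that order. IL1A and CSF3 passed the low-count filter only through T133A, so their place in the first pattern is no support for it. With at most 6 counts in any WT or KO library, these 2 genes could hardly pass in KO against WT.

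**Figure D1:**
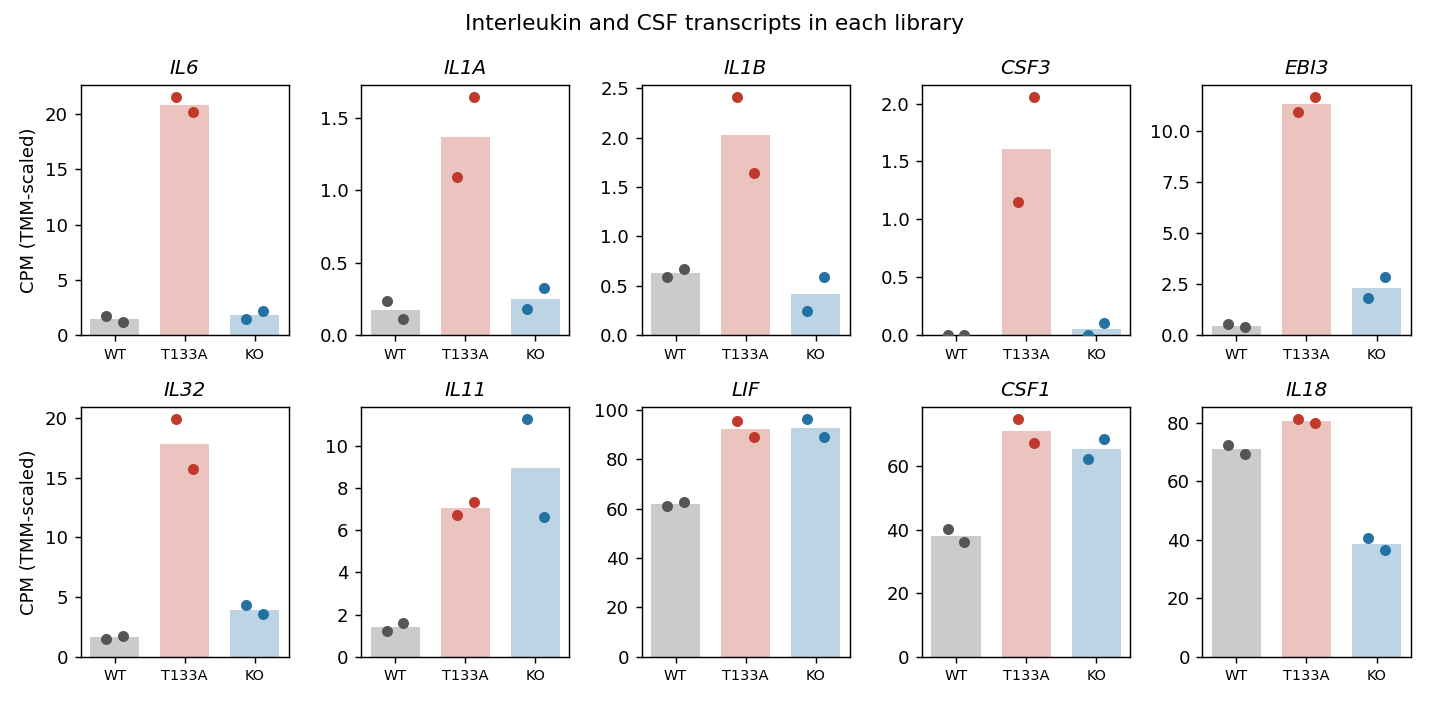
Level of each of the 10 genes in CPM (counts scaled to the TMM-corrected library size, linear axes from 0, 1 scale per gene) in the 2 libraries of WT, T133A and KO. Points are libraries and bars are group means; IL6, IL1A, IL1B and CSF3 stand high in T133A alone, IL11, LIF and CSF1 in T133A and KO, and IL18 is low in KO.

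Against WT, T133A cells carried more of 9 of the 10 transcripts and less of none, with folds from 1.49 for LIF to 24.5 for EBI3 among those with counts in WT. Of all 16340 genes tested in this comparison, 5.58% were called higher and 3.97% lower. The median log2 fold change was 2.62 over the 10 genes and 2.30 without CSF3, beside 0.0035 over all genes tested. A rise of at least 4-fold was called for 6 of the 10, against 0.643% of all genes. IL1A and CSF3 entered the test through the group where they are high and do not support this count. The median of 2.62 includes both, and that of 2.30 includes IL1A. Among the other 8, 7 were higher and 4 at least 4-fold higher, against 5.45% and 0.396% of the 15904 genes that passed in WT and KO alone. For all 10 genes both T133A libraries lay above both WT libraries; the groups did not overlap for 53.6% of all genes, in either direction. The labels do not state the purpose of the comparison. It sets cells given HOXB9 with the threonine change beside cells given HOXB9 without it.

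IL6 encodes an acute-phase and inflammatory cytokine that signals through gp130 (ENSG00000136244, chromosome 7, 22725884 to 22732002, forward strand). Counts in WT were 29 and 21, in T133A 375 and 343, and in KO 24 and 40, or 1.70 and 1.17, 21.6 and 20.2, and 1.46 and 2.15 CPM. Both T133A libraries stood above all 4 others, and WT and KO overlapped. The level in T133A was 14.5-fold that in WT (log2 fold change 3.86, SE 0.233, adjusted p = 3.64e-11) and 11.4-fold that in KO (3.51 on the log2 scale, SE 0.224, adjusted p = 1.59e-11). KO against WT gave 0.35 on the log2 scale with a 95% interval of -0.28 to 0.98 (adjusted p = 0.364). STEAP1B, annotated across the gene on the other strand, had at most 5 counts in any library.

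IL1A and IL1B lie side by side on chromosome 2 (112773915 to 112784590 and 112829751 to 112836903, both on the reverse strand) and encode the 2 agonists of the IL-1 receptor. In WT IL1A had 4 and 2 counts, in T133A 19 and 28, and in KO 3 and 6. IL1B had 10 and 12 counts in the WT libraries, 42 and 28 in those of T133A and 4 and 11 in those of KO. For both genes the T133A libraries lay above the other 4, at low depth. The ratio of summed counts, scaled to library size, between T133A and WT was 7.98 for IL1A (exact 95% counting interval 3.4 to 22.8) and 3.24 for IL1B (1.98 to 5.5). Such intervals cover counting error only. edgeR called both (log2 fold change 2.94 and 1.68, adjusted p = 0.00468 and 0.0247), but IL1A passed the low-count filter only through the T133A libraries.

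Both calls depended on single libraries. The IL1A call was lost without WT replicate 2 (adjusted p = 0.0934) or T133A replicate 2 (0.0519), within a range of 0.0015 to 0.0934 over its alternatives. The IL1B call was lost without WT replicate 1 (0.167), WT replicate 2 (0.112) or T133A replicate 1 (0.215), and with DESeq2 (0.149), within a range of 0.0122 to 0.215. T133A also exceeded KO for IL1A (log2 fold change 2.39, adjusted p = 0.00345) and IL1B (2.24, adjusted p = 0.00111). The first of these was lost without T133A replicate 2 (0.071) or KO replicate 1 (0.0511), within a range of 4.98e-04 to 0.071. KO against WT was 0.56 for IL1A (95% interval -1.22 to 2.34) and -0.55 for IL1B (-1.77 to 0.66) on the log2 scale, wide intervals at this depth.

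CSF3 encodes the granulocyte colony-stimulating factor (ENSG00000108342, chromosome 17, 40015361 to 40017813). Both WT libraries had 0 counts, T133A had 20 and 35, and KO had 0 and 2. The T133A level of 1.60 ± 0.642 CPM was at least 9.36-fold higher than in WT, taking 3 counts per WT library as the limit (adjusted p = 1.73e-04). Against KO, also under this limit, only the exact 95% counting interval of the ratio is given, 7.4 to 237 (adjusted p = 1.49e-04 by edgeR). WT and KO were both under the limit, so no fold is given between them. CSF3 was thus detected above 3 counts in T133A alone, and it passed the low-count filter only through those 2 libraries, so its test is not independent of that difference.

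EBI3 (ENSG00000105246, chromosome 19, 4229498 to 4237531) had 9 and 7 counts in the WT libraries, 191 and 199 in those of T133A and 30 and 53 in those of KO, or 0.526 and 0.390, 10.98 and 11.7, and 1.82 and 2.85 CPM. The 3 groups did not overlap, and KO lay between WT and T133A. T133A exceeded WT 24.5-fold (log2 fold change 4.61, SE 0.315, adjusted p = 3.02e-10) and KO exceeded WT 5.09-fold (2.35, SE 0.378, adjusted p = 2.60e-05). T133A against KO was 4.803-fold (2.26, SE 0.241, adjusted p = 9.64e-08). No rise was called for the genes of its partner chains. IL27, for the other chain of IL-27, had 0 counts in all 6 libraries. IL12A, for the other chain of IL-35, had 6 to 21 counts and no call in any comparison. Its KO counts, 14 and 21, lay above those of WT, 7 and 6. That comparison fell just short of the threshold (log2 fold change 1.40, 95% interval 0.20 to 2.61, edgeR adjusted p = 0.0525).

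IL32 (ENSG00000008517, chromosome 16, 3065297 to 3082192) had the same order of groups. WT stood at 1.52 and 1.73 CPM, T133A at 19.9 and 15.7 CPM and KO at 4.31 and 3.61 CPM, with no overlap between groups. The rise was 10.9-fold in T133A (log2 fold change 3.45, SE 0.227, adjusted p = 1.64e-10) and in KO 2.42-fold (1.28, SE 0.26, adjusted p = 3.49e-04). T133A exceeded KO 4.51-fold (2.17, SE 0.2, adjusted p = 8.79e-09).

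In KO cells, 5 of the 10 genes were higher than in WT and 1 was lower, beside 23.6% and 23.0% of all genes tested. The comparison sets cells labelled as lacking HOXB9 beside cells given it. The rise was at least 4-fold for 2, IL11 and EBI3, against 1.22% of all genes. The groups did not overlap for the 6 called genes, as for 75.4% of all genes. The median log2 fold change of the 10 was 0.68 with the fitted value of CSF3 and 0.59 over the 9 others, beside 0.001 over all genes. The rises were in IL11, LIF, CSF1, EBI3 and IL32, and the fall was in IL18. Because T133A and KO were both compared with the same 2 WT libraries, their fold changes are given side by side, and the direct comparison of T133A with KO tests the difference.

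**Figure D2:**
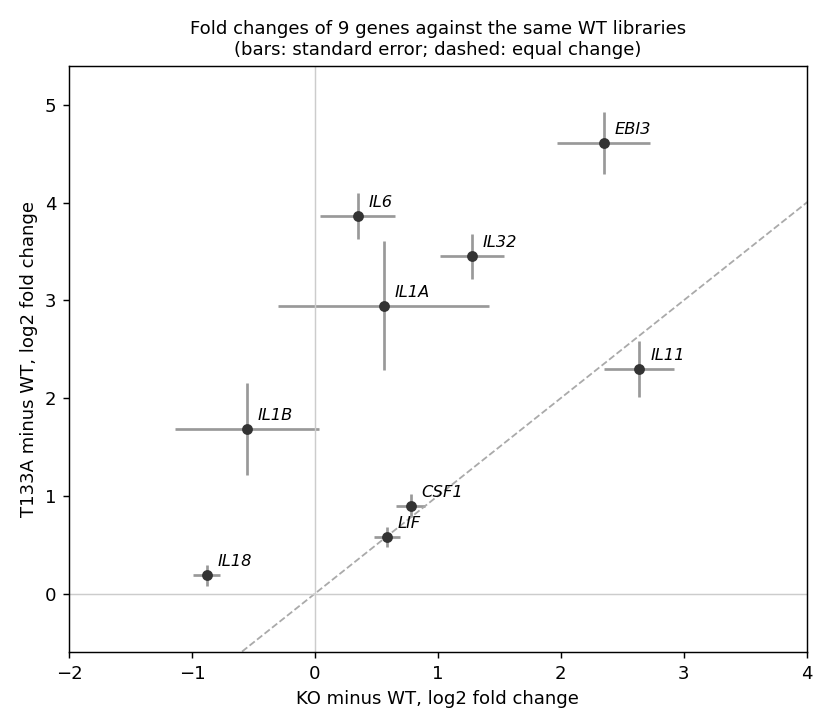
Log2 fold change of T133A against WT (vertical axis) and of KO against WT (horizontal axis) for 9 genes, with standard errors from edgeR; CSF3 is left out because its WT counts are 0. LIF, CSF1 and IL11 lie near the dashed line of equal change, while IL6, EBI3, IL32, IL1A and IL1B lie above it and IL18 is the only called fall. Both axes use the same WT libraries.

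IL11 encodes a gp130 cytokine known from stromal and tumour tissue (ENSG00000095752, chromosome 19, 55364389 to 55370463, reverse strand). Its WT counts were 21 and 29, those of T133A 117 and 125, and those of KO 186 and 123, or 1.23 and 1.62, 6.73 and 7.35, and 11.3 and 6.62 CPM. All T133A and KO libraries stood above WT, and the KO pair was the widest of the 3 and enclosed T133A. IL11 rose 4.92-fold in T133A (log2 fold change 2.30, SE 0.289, adjusted p = 6.96e-06) and in KO 6.23-fold (2.64, SE 0.284, adjusted p = 9.25e-08). T133A against KO was -0.34 (95% interval -0.82 to 0.14, adjusted p = 0.254). The value differed with the KO library left out: it was -0.67 without KO replicate 2, where it passed (adjusted p = 0.034, within a range of 0.034 to 0.88), and 0.06 without KO replicate 1.

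LIF, the leukaemia inhibitory factor gene (ENSG00000128342, chromosome 22, 30240447 to 30246851, reverse strand), had over 1000 counts in every library. WT stood at 60.9 and 62.6 CPM, T133A at 95.6 and 88.9 CPM and KO at 96.5 and 88.9 CPM. The T133A and KO libraries overlapped and lay above WT. The rise in T133A was 1.49-fold (log2 fold change 0.58, SE 0.106, adjusted p = 7.71e-04), and in KO the log2 fold change was about as large (0.59, SE 0.106, adjusted p = 1.06e-04). T133A against KO was -0.01 with a 95% interval of -0.22 to 0.21 (adjusted p = 0.966). Antisense transcripts annotated across LIF had at most 24 counts in a library.

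CSF1, the macrophage colony-stimulating factor gene (ENSG00000184371, chromosome 1, 109910242 to 109930992), had WT levels of 40.3 and 36.1 CPM, T133A levels of 75.1 and 67.4 CPM and KO levels of 62.3 and 68.7 CPM. Again WT lay below the other 4 libraries. The log2 fold change was 0.90 in T133A (SE 0.117, adjusted p = 9.93e-06) and 0.78 in KO (SE 0.117, adjusted p = 1.09e-05). Between T133A and KO it was 0.12 with a 95% interval of -0.11 to 0.36 (adjusted p = 0.426). That difference passed with the GC and length correction (0.22, adjusted p = 0.0406, within a range of 0.0406 to 0.911).

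IL18 encodes an IL-1 family cytokine that is stored as a precursor in epithelial cells and cleaved by caspase-1 (ENSG00000150782, chromosome 11, 112143251 to 112164117, reverse strand). WT had 1238 and 1242 counts, T133A 1415 and 1356, and KO 666 and 679, or 72.4 and 69.3, 81.4 and 79.7, and 40.4 and 36.5 CPM. KO lay below both other groups by 1.84-fold against WT (log2 fold change -0.88, SE 0.111, adjusted p = 1.05e-06) and 2.09-fold against T133A (T133A minus KO 1.07, SE 0.111, adjusted p = 6.87e-08). T133A lay slightly above WT without passing (0.19, 95% interval -0.04 to 0.41, adjusted p = 0.322). Corrected for GC content and length, it passed (0.27, adjusted p = 0.034, within a range of 0.034 to 0.80).

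T133A against KO, which tests whether these 2 groups differ, called 7 of the 10 genes higher in T133A and none higher in KO. Of all genes tested, 20.3% were called higher and 19.6% lower. The groups did not overlap for the same 7, as for 67.0% of all genes, and 6 of them (all but IL18) were at least 4-fold higher, against 4.11% of all genes. Without IL1A and CSF3, which entered the test through T133A, 5 of 8 were higher and 4 at least 4-fold higher, against 20.1% and 3.56% of the genes that passed in WT and KO alone. The 7 were IL6, IL1A, IL1B, CSF3, EBI3, IL32 and IL18. The median on the log2 scale was 2.21 over all 10 genes and 2.17 without CSF3, beside -0.0097 over all genes. The median of 2.21 includes IL1A and CSF3, and that of 2.17 includes IL1A.

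Scaled by gene length, the authors' FPKM values place IL18, LIF and CSF1 as the main transcripts of this set in every group. In WT they stood at 26.7 ± 0.931, 15.4 ± 0.245 and 7.01 ± 0.57 FPKM (SD, n = 2), and the other 7 genes at 0 to 0.688 FPKM. IL6, IL11 and IL32 were not separated from their neighbours in this order in WT, since the libraries of IL6 and IL11 overlapped, as did those of IL11 and IL32. In T133A the order was IL18 (30.4 ± 0.0548 FPKM), LIF (23.0 ± 0.805), CSF1 (13.0 ± 0.78), IL6 (9.99 ± 0.311), EBI3 (8.76 ± 0.533), IL32 (5.50 ± 0.84) and IL11 (2.61 ± 0.205). CSF3, IL1B and IL1A followed at 0.719, 0.649 and 0.641 FPKM and overlapped.

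In KO the leading transcript was LIF (23.3 ± 0.872 FPKM), ahead of IL18 (14.6 ± 0.748) and CSF1 (12.1 ± 1.07). IL11 was next at 3.33 ± 1.17 FPKM, and EBI3, IL32 and IL6 stood at 1.82, 1.23 and 0.873 FPKM. Summed over the 10 genes, the mean level was 51.6 FPKM in WT, 95.3 FPKM in T133A and 57.5 FPKM in KO. IL6, EBI3 and IL32 made up 10.5%, 9.19% and 5.77% of that sum in T133A and 1.33%, 0.687% and 0.974% in WT.

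**Figure D3:**
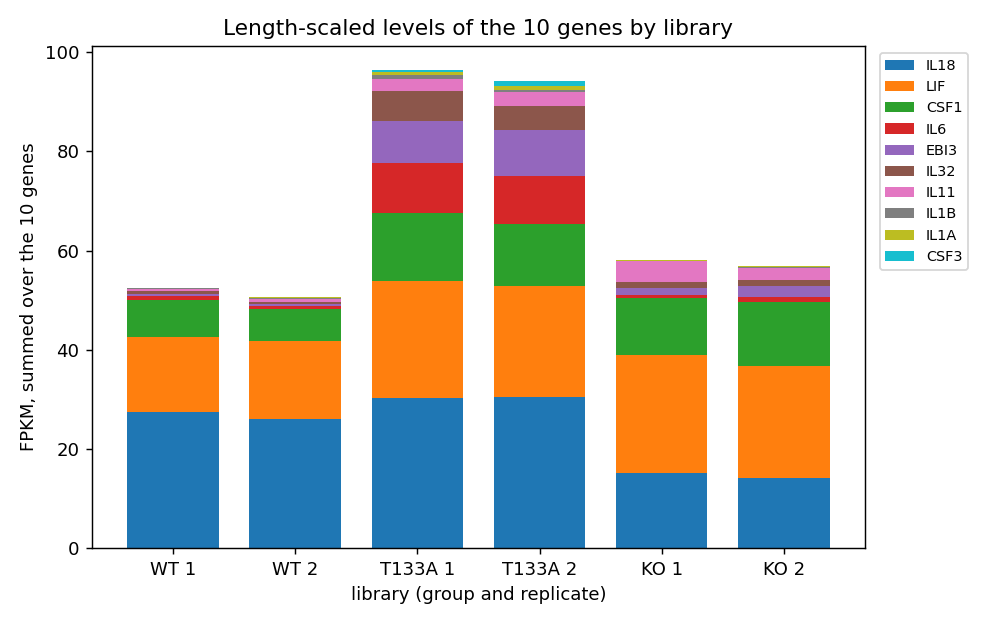
Summed FPKM of the 10 genes in each library, stacked by gene, on a linear axis from 0. The 2 T133A libraries reach the highest sums, with visible shares of IL6, EBI3 and IL32, and the KO libraries hold less IL18 than WT.

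The profiles closest to each gene were sought among other protein-coding genes with a mean of at least 5 CPM, as the smallest Euclidean distance between mean-centred log2 CPM values over the 6 libraries. This measure describes likeness over 6 libraries only. For IL6 the nearest were PDZK1IP1 (distance 0.51), TNFAIP3 (0.71) and SOD2 (0.856). TNFAIP3 encodes an inhibitor of NF-kB signalling and SOD2 the mitochondrial superoxide dismutase. TNFAIP3 averaged 11.7 CPM in WT and 10.8 CPM in KO, and 141 CPM in T133A.

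For IL32 the nearest were IRAK2, an IL-1 receptor kinase gene (0.547), the monocyte chemokine gene CCL2 (0.775) and TNC, for a matrix glycoprotein (0.821). EBI3 had C15orf48 (0.73), IRAK2 (0.946) and CCL2 (0.967) nearest. Near IL11 were CA8 (0.599) and GFPT2 (0.779), with mean GFPT2 levels of 36.1, 136 and 136 CPM in WT, T133A and KO. LIF was closest to PIK3CD (0.119), CMIP (0.122) and SSH1 (0.15), CSF1 to TGIF2 (0.173), DCBLD1 (0.256) and IL4R (0.272), and IL18 to DGKD (0.0966), KANK1 (0.135) and MARCKSL1 (0.141). The low counts of IL1A, IL1B and CSF3 make their distances depend on the pseudocount of 0.5 CPM. Nearest to IL1A were DSE (0.492), SLC6A15 (0.525) and TFPI2 (0.528), to IL1B ASS1 (0.187), TNS4 (0.379) and MAFF (0.439), and to CSF3 SPX (0.568), IFNGR1 (0.729) and TNC (0.75).

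Few other ligands of these families were measurable. For this and the following lists, 5.58% of all genes tested were called higher and 3.97% lower in T133A against WT. Of 42 other interleukin and colony-stimulating factor genes, 28 had a count in some library and 10 passed the filter. In T133A none of the 10 was called higher by edgeR and 1 lower, with a median log2 fold change of -0.02. The 1 was KITLG, the stem cell factor gene, at 57.5 and 48.7 CPM in WT and 30.5 and 46.1 CPM in T133A (adjusted p = 0.0495), and it was lost without WT replicate 1, T133A replicate 1 or either KO library. The number lower in T133A stayed at 1 under 6 alternatives and differed under 9. In KO, 4 were lower and 1 higher, beside 23.0% and 23.6% of all genes. IL15, a growth factor for natural killer and T cells, fell from 29.5 and 27.7 CPM in WT to 10.0 and 11.4 CPM in KO (-1.41 on the log2 scale, SE 0.157, adjusted p = 1.496e-07). IL7, KITLG and IL23A were the others that fell and IL34, a second ligand of the CSF1 receptor, rose (1.42, adjusted p = 0.0297). The number lower was 2 without either WT library or KO replicate 2 and 1 without KO replicate 1, and the IL34 call was lost without any 1 of these 4 libraries.

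Of 10 receptor chains tested, 1 rose in T133A and none fell (median 0.02). OSMR, which pairs with gp130 to bind oncostatin M, rose from 289 and 270 CPM in WT to 497 and 519 CPM in T133A (log2 fold change 0.86, adjusted p = 4.8e-06) and fell to 161 and 193 CPM in KO (-0.66, adjusted p = 2.89e-05). In KO, 4 chains were lower (OSMR, IL1R1, CSF2RA and IL11RA) and IL27RA was higher, beside 23.0% and 23.6% of all genes. IL1R1, the signalling receptor for IL-1, had a log2 fold change of -1.15 (adjusted p = 5.87e-08), CSF2RA of -1.35 (adjusted p = 1.86e-05) and IL27RA of 1.14 (adjusted p = 1.22e-05). The number higher in T133A was 2 without either KO library and 3 with the GC and length correction, and the number lower was 1 without T133A replicate 2. The number higher in KO was 2 without either T133A library or KO replicate 2.

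The gp130 chain IL6ST itself stood at 182 ± 8.43 CPM in WT, at 171 ± 34.5 CPM in T133A and at 197 ± 2.26 CPM in KO, with no call in any comparison. The receptors for CSF1 and CSF3 were nearly silent, with 2 to 7 counts of CSF1R per library and at most 2 of CSF3R. IL18RAP, a chain of the IL-18 receptor, had at most 5 counts. Among antagonists and decoys, none of 3 tested passed in T133A (SIGIRR, TOLLIP and IL18BP, log2 fold change -0.02 to 0.43). Of all genes tested, 23.6% were called higher and 23.0% lower in KO against WT. In KO, SIGIRR and TOLLIP, which restrain IL-1 receptor signalling, rose by 0.72 and 0.44, and IL18BP, which neutralises IL-18, fell by 0.73. Only 1 of the pair rose without WT replicate 1 or KO replicate 2, and the IL18BP call was lost without WT replicate 2 or KO replicate 2.

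Of 16 genes for IL-1 and IL-18 processing and release, 1 rose in T133A (GSDME, a pore-forming gasdermin, log2 fold change 0.43, adjusted p = 0.0146) and none fell. That call was lost without either WT library, and 1 gene was lower without T133A replicate 2. With the GC and length correction 4 rose. Of all genes, 23.6% were called higher and 23.0% lower in KO against WT. In KO, 3 rose and 6 fell, and the 6 were 3 without KO replicate 2. CASP1, the caspase that cleaves the precursors of IL-1 beta and IL-18, had levels of 3.45 and 3.62, 5.58 and 5.64, and 2.06 and 1.51 CPM in WT, T133A and KO, and fell in KO (-0.99, adjusted p = 0.00528). GSDMD, the gasdermin cut by inflammatory caspases, and CASP4 fell as well (-0.65 and -0.76), while CAPN2 and NINJ1, a membrane rupture protein gene, rose (0.75 and 1.009).

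Among signal transducers, 3 of 19 rose in T133A and none fell, with a median of 0.07. IRAK2 was at 16.5 and 15.9, 114 and 119, and 26.5 and 30.7 CPM in WT, T133A and KO. This gene rose in both groups (log2 fold change 2.84 and 0.82, adjusted p = 1.04e-13 and 1.47e-05) and was higher in T133A than in KO (2.02, adjusted p = 3.09e-12). JAK1, a kinase bound to gp130, rose by 0.51 in T133A and 0.63 in KO, and STAT5A rose in T133A (1.15) and fell in KO (-0.49). Without T133A replicate 2, 5 transducers were higher and 1 lower in T133A. In KO, 4 rose and 5 fell, with IRAK1 among the rises (0.73), and the 5 were 3 without either WT library or KO replicate 2. The 4 rises and 5 falls among 19 in KO lie near the shares of all genes called, 23.6% higher and 23.0% lower. STAT3 was not called in either comparison with WT (0.22 and -0.05).

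Of 16 tested targets of gp130 and STAT3, 5 rose in T133A and none fell, with a median of 0.13. SOCS3, the feedback inhibitor of gp130 signalling, was at 12.6 and 12.3, 32.6 and 28.8, and 27.1 and 25.0 CPM in WT, T133A and KO. It rose in both (log2 fold change 1.31 and 1.07, adjusted p = 7.85e-07 and 2.08e-06), and T133A against KO did not pass (0.24, adjusted p = 0.168). In KO, 3 rose and 7 fell, beside 23.6% and 23.0% of all genes, with a median of -0.32. Of this list, the 3 fibrinogen chain genes had the lowest log2 fold changes in KO (FGB -7.80, FGG -5.28 and FGA -4.82), followed by the cell surface mucin gene MUC1 (-2.76). These fibrinogen genes did not pass in T133A (-0.31 to 0.19).

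Among genes that control cytokine mRNA and its decay, ZC3H12A and NFKBIZ rose in T133A and fell in KO. ZC3H12A, which encodes the endonuclease Regnase-1 that degrades IL6 mRNA, was at 23.8 and 21.97, 109 and 92.1, and 12.6 and 12.7 CPM in WT, T133A and KO (log2 fold change 2.13 and -0.85 against WT, adjusted p = 2.48e-11 and 2.28e-05). NFKBIZ, for a nuclear cofactor of NF-kB that promotes IL6 transcription, was at 54.9 and 52.8, 103 and 116, and 7.59 and 9.31 CPM in that order (1.02 and -2.67, adjusted p = 1.59e-06 and 3.62e-13). Both genes were higher in T133A than in KO (2.99 and 3.69, adjusted p = 2.49e-14 and 9.28e-16). ZFP36L2 fell in both (-0.53 and -1.33), and ZFP36, for the AU-rich element binding protein tristetraprolin, fell in KO (-1.13, adjusted p = 5.53e-07). Over the 17 genes of this list, 3 rose and 1 fell in T133A, and 5 rose and 6 fell in KO. Among all genes, 23.6% were higher and 23.0% lower in KO against WT. The number lower in T133A was 2 without T133A replicate 2, and 9 rose in KO with the GC and length correction.

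**Figure D4:**
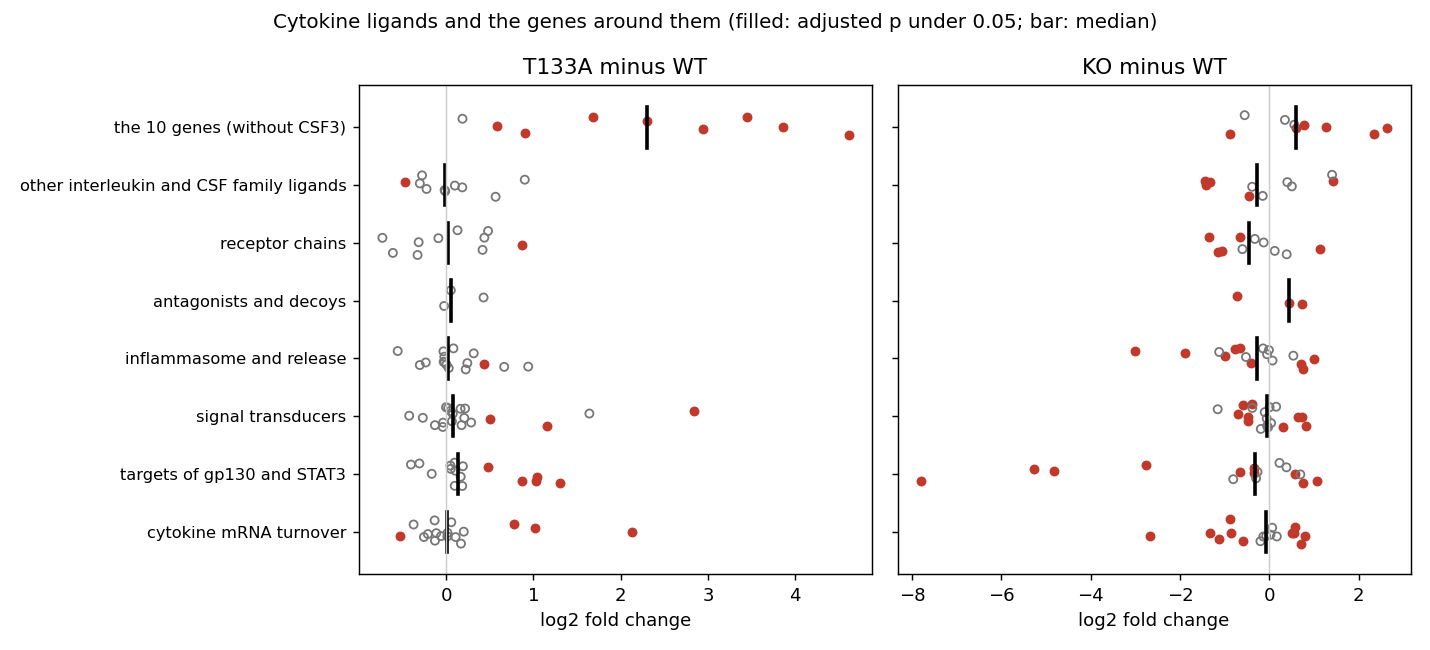
Log2 fold change of T133A against WT (left) and KO against WT (right) for every tested gene of the 10 cytokines and of 7 surrounding lists, each point a gene (filled where adjusted p is under 0.05) and each bar the list's median; CSF3 is left out because its WT counts are 0. In T133A the median of the 9 cytokine genes shown is 2.30, and those of the other lists lie between -0.02 and 0.13. Single genes reach 4.61 among the cytokines and 2.84 in the other lists.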

How the data were processed

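The 6 libraries, 2 in each of the groups WT, T133A and KO, were grouped by their titles. Raw read counts per gene and FPKM values (counts per gene length and library size) were deposited by the authors, 1 file per library. HISAT2 2.0.5, featureCounts 1.5.0 and the build GRCh38 were used, per the submitters' processing notes. The annotation release and strand setting were not given in the sources used here. Without the latter, genes on opposite strands may share counts. FPKM served only to compare levels between genes, and all tests used the counts. No per-sample column was left unused.

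Genes were tested with edgeR 4.0.16 (R 4.3.3; TMM scaling, filterByExpr, robust quasi-likelihood fit, group as the only term) in 1 fit of all 6 libraries, adjusted by the Benjamini-Hochberg method over all 16340 genes tested, two-sided, with a threshold of 0.05. Standard errors were derived from each fold change and F statistic. The biological coefficient of variation was 8.96%. Totals were 16299059 to 18745432 counts. The procedure was tested on simulated counts. Named genes are the 10 cytokine genes, HOXB9, up to 4 called genes per list with the smallest adjusted p, and the 3 nearest profiles of each cytokine gene. A few genes that this rule names are not reported here. Other genes are named to give a list's calls or silent partners and were chosen after their values were seen. The 10 genes and the lists were chosen with earlier results of these data known. Alternatives were RLE factors, library size only, DESeq2 1.42.0, other filters, only the groups compared, a replicate block, a minimum fold, a GC and length correction (GENCODE 29, loess span 0.5) and each library left out. Figures used matplotlib 3.10.9.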

Additional observations from a re-analysis of the deposited data

How the results depend on the processing

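Of 443 fold changes of the 10 genes recomputed under the alternatives, 420 kept their direction and side of the threshold. Of 92 counts of genes called, 87 were within 1.5 times the value reported, as were 767 of 920 counts for the other lists. With a mean of at least 5 CPM, which left 6 of the 10 genes, 5 were higher in T133A than in WT and 3 higher than in KO. Of the 11301 genes tested in that setting, 717 and 2708 were higher in these comparisons. IL6 and IL32 averaged under 5 CPM in both WT and KO. They stayed only through T133A, where they are high, and do not support these counts. With a minimum log2 fold change of 1, 3 of the 10 were higher and 0 lower in KO against WT, beside 757 and 1733 of all 16340 genes. With 1 library left out, 7 to 9 were higher in T133A than in WT, 6 to 7 higher and 0 to 1 lower than in KO. DESeq2 called 6 of the 10 higher in T133A against WT, beside 741 of the 31579 genes given to it. It gave no adjusted p for IL1A and CSF3. T133A against KO changed sign for LIF, near 0 throughout: 0.0265 with the 5 CPM minimum, 0.00023 with only the groups compared, 0.11 with the GC and length correction, 0.000855 with the crossed block, and 0.0409 without T133A replicate 2 or 0.0222 without KO replicate 1, within -0.058 to 0.0409 when 1 library was left out. For IL11 the range over left-out libraries was -0.674 to 0.0587, and the highest was without KO replicate 1. The causes were not tested.

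Replicate numbers were shared between groups, but same-numbered libraries did not deviate together (correlation -0.07 for T133A and WT, 0.04 for KO and WT, -0.17 for T133A and KO). With the replicate block the numbers called were again 9 higher in T133A and 5 higher and 1 lower in KO against WT, and 7 higher in T133A against KO. The crossed replicate block for T133A and KO, chosen after seeing the data, also gave 7 and 0.

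Over all genes, 912 were higher and 648 lower in T133A against WT (58.5% higher). Library size scaling gave 668 and 818 (45.0% higher), the GC and length correction 1576 and 828, leaving out WT replicate 1 456 and 307, WT replicate 2 467 and 373, T133A replicate 2 1447 and 1132, and the minimum fold 285 and 146. KO against WT had 3862 and 3760, 2563 and 2743 without WT replicate 1, and 757 and 1733 with the minimum fold. T133A against KO had 3322 and 3201, and 1509 and 588 with it. Depth limits IL1A, IL1B and CSF3, with 0 to 42 counts per library.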

Other observations

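CSF2, the granulocyte-macrophage colony-stimulating factor gene, did not pass the low-count filter and was chosen after its values were seen. It had 9 and 6 counts in the T133A libraries and 0 in the 4 others. Its T133A level of 0.435 ± 0.116 CPM (SD, n = 2) was at least 2.54-fold higher than in WT and at least 2.53-fold higher than in KO, taking 3 counts per library as the limit, with no test. Its receptor chain CSF2RB had 0 counts in every library. The other genes of the IL-1 cluster showed no such pattern: IL36A and IL36B were at 0 throughout, IL36G had 4 counts in 1 T133A library, IL37 had 3 in 1 KO library, and IL1RN, for the IL-1 receptor antagonist, had 1 to 9 counts per library.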
